A study of Homo sapiens with 6 samples.

Results

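The miR-29 family was followed through small RNA libraries of HEK293T, a line of human embryonic kidney cells, after knockdown of the ribosomal protein RPL24. Its members were taken by name from the deposited table of mature miR counts and are hsa-miR-29a-3p, hsa-miR-29a-5p, hsa-miR-29b-3p, hsa-miR-29b-1-5p, hsa-miR-29c-3p and hsa-miR-29c-5p, 6 of the 2588 miR names listed; the prefix hsa, for human, is left out from here on. A further product of the same hairpins, miR-29b-2-5p, lies outside this list and is given beside it. All 6 members had at least 1 read, and 2 of them, miR-29a-3p and miR-29b-3p, passed the filter on low counts that left 360 miRs for testing.

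RPL24 KD cells received 50 nM of siPOOLs, mixtures of many siRNAs, against RPL24, and NC cells received non-targeting siPOOLs. Each group held 3 libraries, and all cells were harvested 72 h after the siPOOLs. The sample titles, those of NC included, word this as 72h after RPL24 KD, and a separate time label reads day 72. The labels and methods also describe a miR-608 plasmid given to the cells 48 h after the siPOOLs and 24 h before harvest. The account of the sequencing calls it a separate KD experiment and reports that miR-608 was not detected, as HEK293T cells do not express it. It does not say outright whether the sequenced cells carried the plasmid. The labels do not say that the libraries of a group came from separate cultures, so the p-values measure the spread between these libraries, which may be technical.

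MiR-29 is among the best known families of animal miRs that act on the extracellular matrix and on DNA methylation. Its 3p arms are the guide strands, which are held by Argonaute and repress mRNAs of collagens, elastin and the DNA methyltransferases DNMT3A and DNMT3B, and also of the anti-apoptotic factor MCL1. The 5p arms are the passenger strands, of which most copies are normally degraded. The family is low in proliferating cells and is repressed by MYC, whereas it rises in differentiated and ageing tissues.

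The hairpins lie in 2 clusters, both on the minus strand of GRCh38. MIR29A (chr7:130876747-130876810) and MIR29B1 (chr7:130877459-130877539) are separated by 648 nt. In GENCODE 29 both fall in an exon of 1 transcript of the long non-coding RNA LINC-PINT and in introns of 4 transcripts of the non-coding gene AC016831.6, and LINC00513 runs over them on the opposite strand as an intron of 1 transcript. MIR29C (chr1:207801852-207801939) and MIR29B2 (chr1:207802443-207802523) are separated by 503 nt and lie in an exon of 1 transcript of their host gene MIR29B2CHG. The hairpin positions in RefSeq (GRCh38.p14) and GENCODE 29 were identical for all 4.

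The mature sequences are shown because the members differ by so few bases that their counts depend on how reads were assigned. They are RefSeq sequences, found for all 7 products, written 5′ to 3′ with the seed (bases 2 to 8), the part that pairs with target mRNAs, in capitals.
miR-29a-3p: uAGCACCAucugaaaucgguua
miR-29c-3p: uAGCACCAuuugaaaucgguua
miR-29b-3p: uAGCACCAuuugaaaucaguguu
miR-29a-5p: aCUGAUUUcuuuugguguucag
miR-29c-5p: uGACCGAUuucuccugguguuc
miR-29b-1-5p: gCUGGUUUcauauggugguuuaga
miR-29b-2-5p: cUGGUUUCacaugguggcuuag

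The 3 guide arms shared the seed AGCACCA, and no other human miR in the RefSeq table has it. Each of the 4 passenger arms had a seed of its own, found in no other human miR there. Counted from base 1 at the 5′ end, miR-29a-3p and miR-29c-3p were identical at 21 of 22 bases and differed by C10U (miR-29a-3p first). MiR-29b-3p and miR-29c-3p shared their first 17 bases and then differed by A18G, G21U and U22A over the 22 bases compared (miR-29b-3p first). How reads that fit more than 1 of these sequences were counted is not stated, so the split between miR-29a-3p and miR-29c-3p is uncertain. MiR-29b-3p is made from both MIR29B1 and MIR29B2, and its reads cannot be told apart by hairpin.

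The last 6 bases of miR-29b-3p, AGUGUU, are known as a signal for import of this miR into the nucleus. Among the 2370 human mature miRs of the table, 13 (0.549%) hold AGUGUU and 2 (0.0844%) end with it, and miR-29b-3p was the one family member among both. The 4 hairpins are shown with their mature arms in capitals, since the arm counts given further on come from them.
MIR29A: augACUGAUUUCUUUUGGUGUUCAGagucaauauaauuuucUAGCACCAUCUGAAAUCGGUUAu
MIR29B1: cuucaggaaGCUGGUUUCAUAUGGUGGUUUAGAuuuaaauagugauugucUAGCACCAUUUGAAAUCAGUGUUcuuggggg
MIR29B2: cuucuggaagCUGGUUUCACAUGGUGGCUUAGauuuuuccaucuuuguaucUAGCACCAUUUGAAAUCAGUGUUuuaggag
MIR29C: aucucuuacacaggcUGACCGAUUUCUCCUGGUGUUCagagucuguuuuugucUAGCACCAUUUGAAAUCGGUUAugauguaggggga

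The arms were 16 nt apart in MIR29A and MIR29C, 17 nt in MIR29B1 and 19 nt in MIR29B2. UGUG, a motif that aids the cleavage of some hairpins when it lies in their loop, was searched in the RNA strand of the hairpin as annotated. It was found in 692 of 1560 human hairpins (44.4%) and in 0 of these 4, which says only that these letters are not in this window.

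The libraries held from 398721 to 611745 counts, and the floor used here, 3 counts in a library, corresponded to between 4.99 and 7.52 CPM (counts per 1000000 counts of the TMM-normalized library). Intervals and floors cover counting error only, since reads without molecular identifiers are not independent molecules. Between libraries of 1 group the chi-square per degree of freedom was from 2.50 to 2.84 in RPL24 KD pairs and from 12 to 21.5 in NC pairs, above sampling noise, so no library was treated as a copy. RPL24 mRNA is not measured in small RNA libraries, and the depletion was not checked here. No miR defines HEK293T alone, but miR-92a-3p, miR-10a-5p, miR-10b-5p, miR-17-5p and miR-196b-5p, known to be abundant in it, ranked 2, 4, 12, 14 and 31. Of 11 markers of liver, muscle, neurons, blood and fibroblasts, 3 had 0 counts in all libraries (miR-206, miR-223-3p and miR-150-5p). Their summed level was from 269 to 306 CPM after RPL24 KD and from 375 to 525 in NC. Most of it was the muscle miR miR-1-3p, at a mean of 297 CPM, and any part of these markers in the values of miR-29 was not tested.

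Across all 360 miRs tested, 18 were called at an adjusted p under 0.05 by edgeR's quasi-likelihood test with Benjamini-Hochberg adjustment (5.00%), 12 higher (3.33%) and 6 lower (1.67%) after RPL24 KD. Of the 2 tested members of miR-29, 0 were called, and 0 had an unadjusted p under 0.05, which 23.6% of all tested miRs had. DESeq2 and limma on the same miRs also called 0 members. Without the filter, over 1205 miRs, adjusted p-values of the 6 members lay between 0.687 and 0.876 (edgeR). The groups overlapped in both tested members, and did not overlap in 27.5% of all tested miRs. With 2 tested members, no departure from these shares can be read.

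MiR-29a-3p carried nearly all reads of the family. Its 838 counts after RPL24 KD and 778 in NC made up 94.7% of the 1706 counts of the 3 guide arms (exact 95% binomial interval 93.6% to 95.7%). At a mean of 531 CPM it ranked 104 among all miRs listed. The tested miR next above it, miR-1269b, had 531 ± 62.7 CPM (SD over the 6 libraries of both groups). The next below, miR-96-5p, had 513 ± 74.1, against 531 ± 30.1 for miR-29a-3p. These SDs include any shift between the groups. The log2 fold changes were 0.30 for miR-1269b, -0.33 for miR-96-5p and 0.05 for miR-29a-3p, and none was called (edgeR). These neighbours were picked as nearest in mean level, so their closeness to miR-29a-3p is not a finding. The 3 guide arms together were 0.0559% of all counts (exact interval 0.0532% to 0.0586%).

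After RPL24 KD, miR-29a-3p was at 534 CPM in replicate 1, 569 in replicate 2 and 511 in the unnumbered library, the third of its group, whose number in the table matches no label. In NC it was at 490 CPM in replicate 1, 560 in replicate 2 and 519 in the unnumbered library. The highest value was in RPL24 KD and the lowest in NC, but the remaining 4 libraries interleaved. The RPL24 KD mean was 538 ± 29.2 CPM and the NC mean 523 ± 35.2 CPM (SD, n = 3 each). The log2 fold change was 0.05 (standard error 0.097, adjusted p = 0.789, edgeR), and its 95% interval ran from -0.16 to 0.26. In linear terms the fold was 1.04, with an interval from 0.897 to 1.20. The spread of its CPM within a group was near that of counting alone, 5.43% after RPL24 KD and 6.74% in NC against 6.09% and 6.23% expected from the counts.

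**Figure D1:**
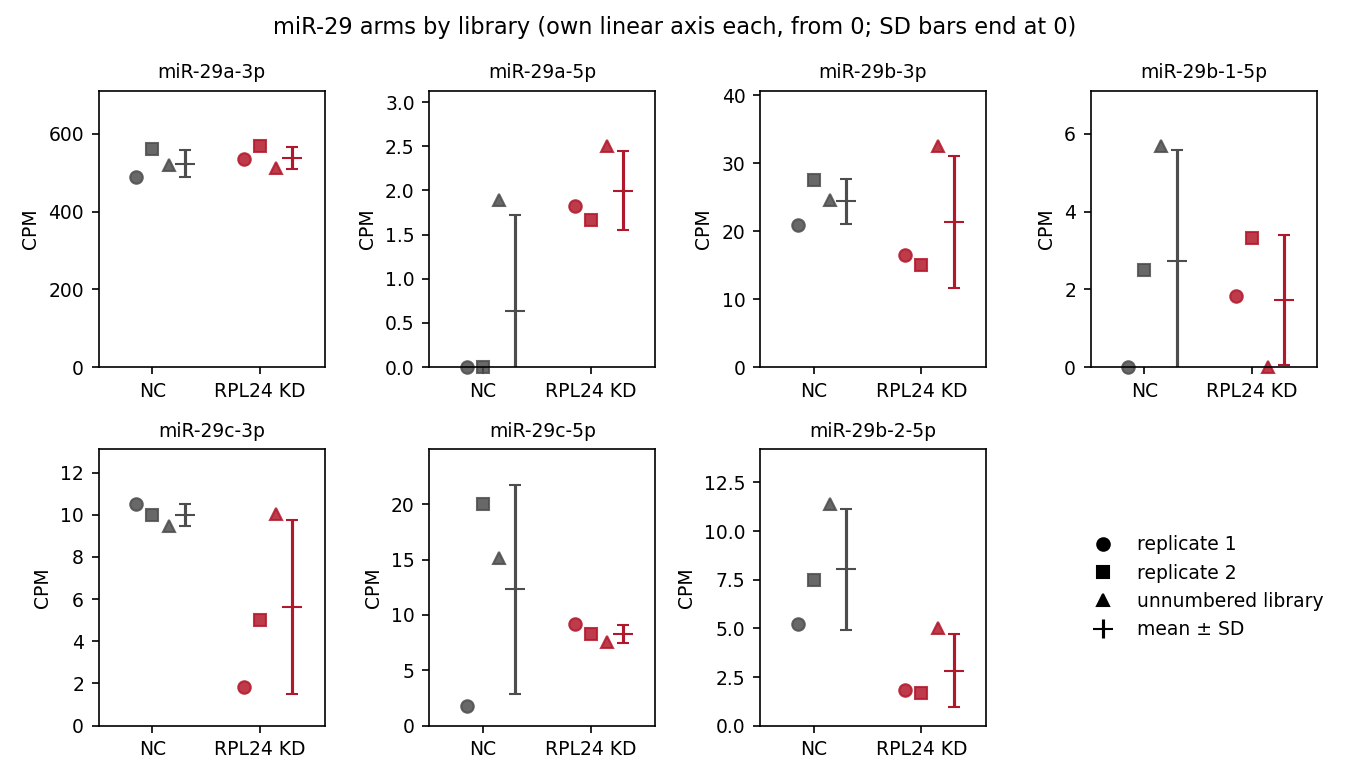
Level of each miR-29 product in each library, in CPM on a linear axis of its own, for NC (grey) and RPL24 KD (red). Symbols mark the library, and the bars show mean ± SD over the 3 libraries of a group; miR-29a-3p lies between 490 and 569 CPM in all 6 libraries, while miR-29a-5p stays at or under 2.51 CPM.

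MiR-29b-3p, the guide with the nuclear signal, was the second most abundant guide arm at a mean of 22.9 CPM, rank 339. It had 9 counts in RPL24 KD replicate 1, 9 in replicate 2 and 13 in the unnumbered library, which were 16.5, 15 and 32.6 CPM. In NC it had 12, 11 and 13 counts in replicate 1, replicate 2 and the unnumbered library, which were 21, 27.5 and 24.6 CPM. The unnumbered RPL24 KD library was the highest of all 6 and the other two RPL24 KD libraries were the lowest. The RPL24 KD mean was 21.3 ± 9.76 CPM and the NC mean 24.4 ± 3.26 CPM (SD, n = 3 each). The log2 fold change was -0.26 (standard error 0.373, adjusted p = 0.745, edgeR), with a 95% interval from -1.06 to 0.54, that is a fold from 0.481 to 1.46. Without the unnumbered RPL24 KD library the log2 fold change was -0.61, and without RPL24 KD replicate 2 it was -0.043. MiR-29b-3p passed the filter, 18.7 CPM in at least 3 libraries, through 3 NC libraries and 1 RPL24 KD library, so its place among the tested miRs rests mostly on NC.

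**Figure D2:**
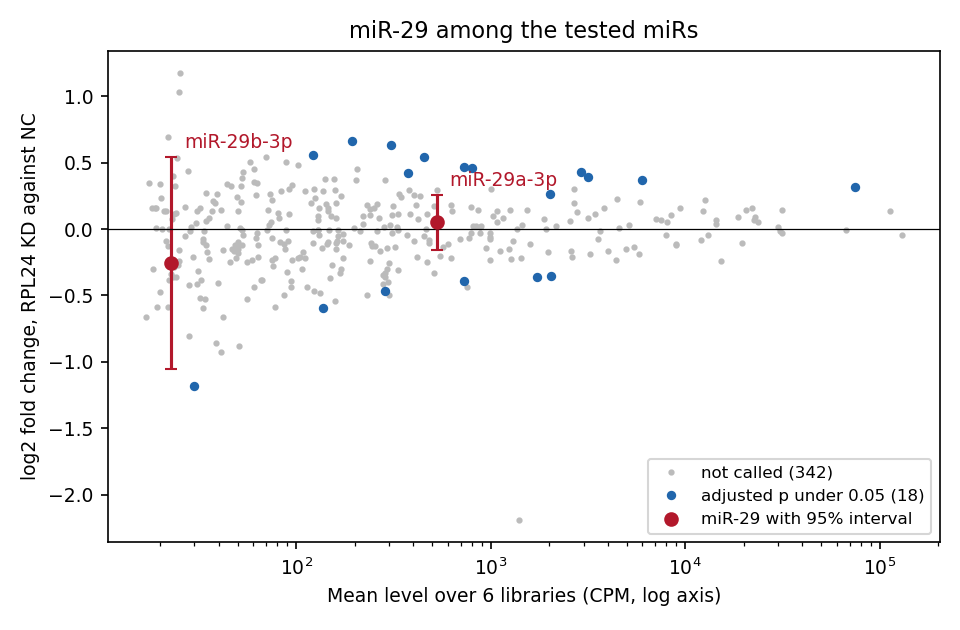
Log2 fold change, RPL24 KD over NC, plotted on the mean level (CPM, log axis) for the 360 tested miRs, with the 18 called miRs in blue. The red points and bars are miR-29a-3p and miR-29b-3p with their 95% intervals, which both include 0; the interval of miR-29b-3p, at 67 counts in all, is the wider.

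MiR-29c-3p, the guide of the chromosome 1 cluster, was close to the floor and was not tested. It had 1, 3 and 4 counts in RPL24 KD replicate 1, replicate 2 and the unnumbered library, and 6, 4 and 5 in the same order in NC. In CPM these were 1.83, 4.99 and 10.0 after RPL24 KD and 10.5, 10.0 and 9.48 in NC, so the groups overlapped through the unnumbered RPL24 KD library. Over the groups it had 8 counts (exact 95% Poisson interval 3.45 to 15.8) after RPL24 KD and 15 (8.4 to 24.7) in NC. The ratio of RPL24 KD to NC, after normalization, was 0.517 with a counting interval from 0.190 to 1.30, and a difference was not detectable at this depth. MiR-29c-3p made up 1.40% of the counts assigned to it and miR-29a-3p together (exact interval 0.892% to 2.1%). With the counts of both summed to 1 row, the log2 fold change was 0.04.

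The passenger arms were rare, and none of the 3 in the list was tested. MiR-29a-5p, the passenger of the most abundant guide, had 4 counts in all, 1 in each RPL24 KD library and 1 in the unnumbered NC library. MiR-29b-1-5p had 7 counts, with 1, 2 and 0 after RPL24 KD and 0, 1 and 3 in NC, in the order replicate 1, replicate 2 and unnumbered library. Both stayed at or under the floor of 3 counts in every library, so no fold is given.

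MiR-29c-5p, by contrast, had 5, 5 and 3 counts after RPL24 KD and 1, 8 and 8 in NC, in the same order. The lowest and the highest value were both in NC, at 1.75 and 20.0 CPM, and the RPL24 KD libraries lay between them, from 7.52 to 9.14 CPM. The ratio of the summed counts, 13 to 17, was 0.741 after normalization with a counting interval from 0.331 to 1.62.

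MiR-29b-2-5p, the passenger outside the list, was the one product whose groups did not overlap. It had 1, 1 and 2 counts after RPL24 KD and 3, 3 and 6 in NC, or from 1.66 to 5.01 CPM against from 5.25 to 11.4 CPM. Only the unnumbered NC library, with 6 counts, was above the floor of 3 counts. The ratio of 4 to 12 summed counts was 0.323 after normalization, with a counting interval from 0.0759 to 1.07. At this depth neither the gap nor the ratio can be read as a difference. Of the 184 miRs outside the test with 10 to 30 counts in all, 17 (9.24%) were lower after RPL24 KD without overlap.

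The share of reads on the guide arm differed between the 3 miR-29 miRs beyond their counting intervals. The 3p arm took 99.8% of the counts of both miR-29a arms (1616 of 1620, exact 95% interval 99.4% to 99.9%). Among 214 hairpin names with both arms listed and at least 50 counts, 75 (35%) had more than 99% of their counts on 1 arm, so the strong bias of miR-29a was common. The 3p arm of miR-29c took 43.4% (23 of 53, 29.8% to 57.7%), so its passenger had as many assigned reads as its guide within counting error. The interval leaves out the uncertain split between miR-29a-3p and miR-29c-3p, which could move this share. A major arm under 60% was found in 8 of the 214 names (3.74%), miR-29c among them. Of the miR-29b counts, with the 5p arms of both hairpins, the 3p arm took 74.4% (67 of 90, 64.2% to 83.1%). Of the 23 miR-29b passenger counts, 7 were of MIR29B1 (30.4%, 13.2% to 52.9%) and the rest of MIR29B2.

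**Figure D3:**
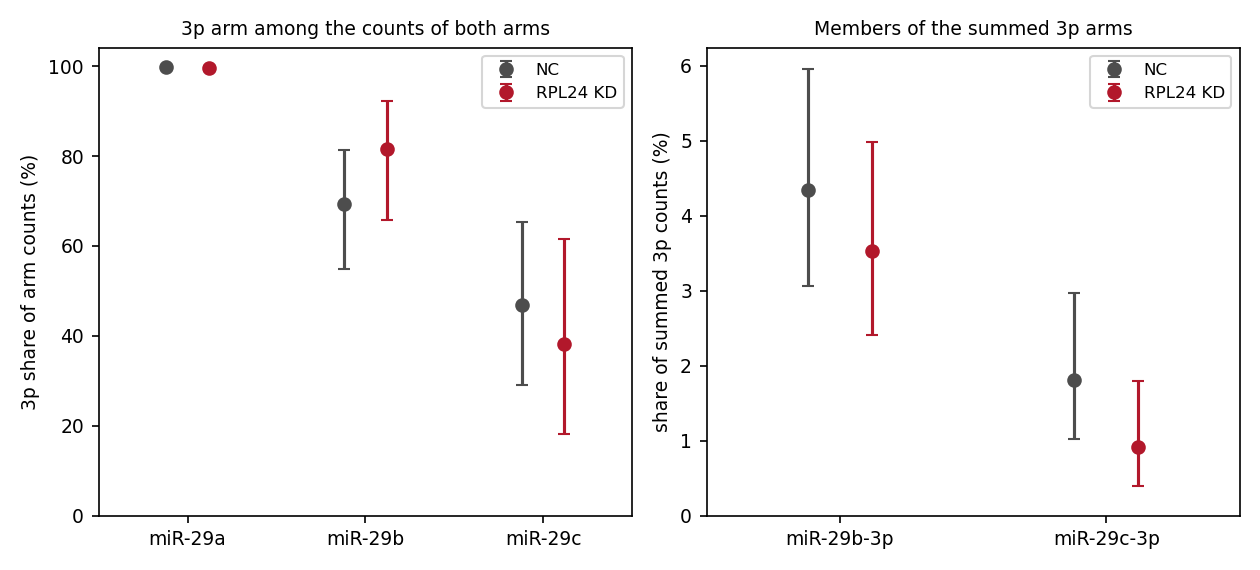
Left, share of the 3p arm among the summed counts of both arms of miR-29a, miR-29b (with both 5p arms) and miR-29c, in percent; right, share of miR-29b-3p and miR-29c-3p among the summed counts of the 3 guide arms, in percent. Points are sums over the 3 libraries of NC (grey) or RPL24 KD (red) and bars are exact 95% binomial intervals, which overlap between the groups in each of the 5 pairs.

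By group, the 3p share of miR-29a was 99.6% after RPL24 KD and 99.9% in NC, that of miR-29b 81.6% and 69.2%, and that of miR-29c 38.1% and 46.9%. These intervals overlapped between the groups. Among the guide arms, miR-29b-3p made up 3.53% of the counts after RPL24 KD and 4.34% in NC, and miR-29c-3p 0.912% and 1.81%. The share of miR-29c-3p lay between 1.67% and 2.01% in the 3 NC libraries and at 0.331%, 0.847% and 1.81% in RPL24 KD replicate 1, replicate 2 and the unnumbered library, which reached the NC range.

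Ratios of 2 members within a library do not depend on the scaling between libraries and were compared as log2 ratios with a pseudocount of 0.5 counts. With 3 libraries against 3, a two-sided exact permutation test cannot go below p = 0.1, so no ratio could be called. The ratio of miR-29b-3p to miR-29c-3p reached that limit. Its RPL24 KD mean was 1.90 ± 0.668 and its NC mean 1.20 ± 0.222 (SD, n = 3 each), a difference of 0.70 without overlap (exact permutation p = 0.1, adjusted p = 0.6 over the 6 ratios). Without RPL24 KD replicate 1, where miR-29c-3p had 1 count, this difference was 0.32. The ratio of miR-29c-3p to miR-29a-3p differed by -1.0 after RPL24 KD, but the groups overlapped (-6.58 ± 1.05 against -5.57 ± 0.121, SD, n = 3 each, exact permutation p = 0.3, adjusted p = 0.6). It was -0.49 without RPL24 KD replicate 1 and -1.54 without the unnumbered RPL24 KD library. The ratio of miR-29b-3p to miR-29a-3p differed by -0.31 (exact permutation p = 0.4, adjusted p = 0.6). It was -0.17 without RPL24 KD replicate 1, -0.059 without RPL24 KD replicate 2 and -0.68 without the unnumbered RPL24 KD library. The ratios of the 3p to the 5p arm differed by -0.97 for miR-29a, -0.06 for miR-29b with miR-29b-1-5p and -0.91 for miR-29c, with exact permutation p-values from 0.3 to 0.9 and groups that overlapped.

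**Figure D4:**
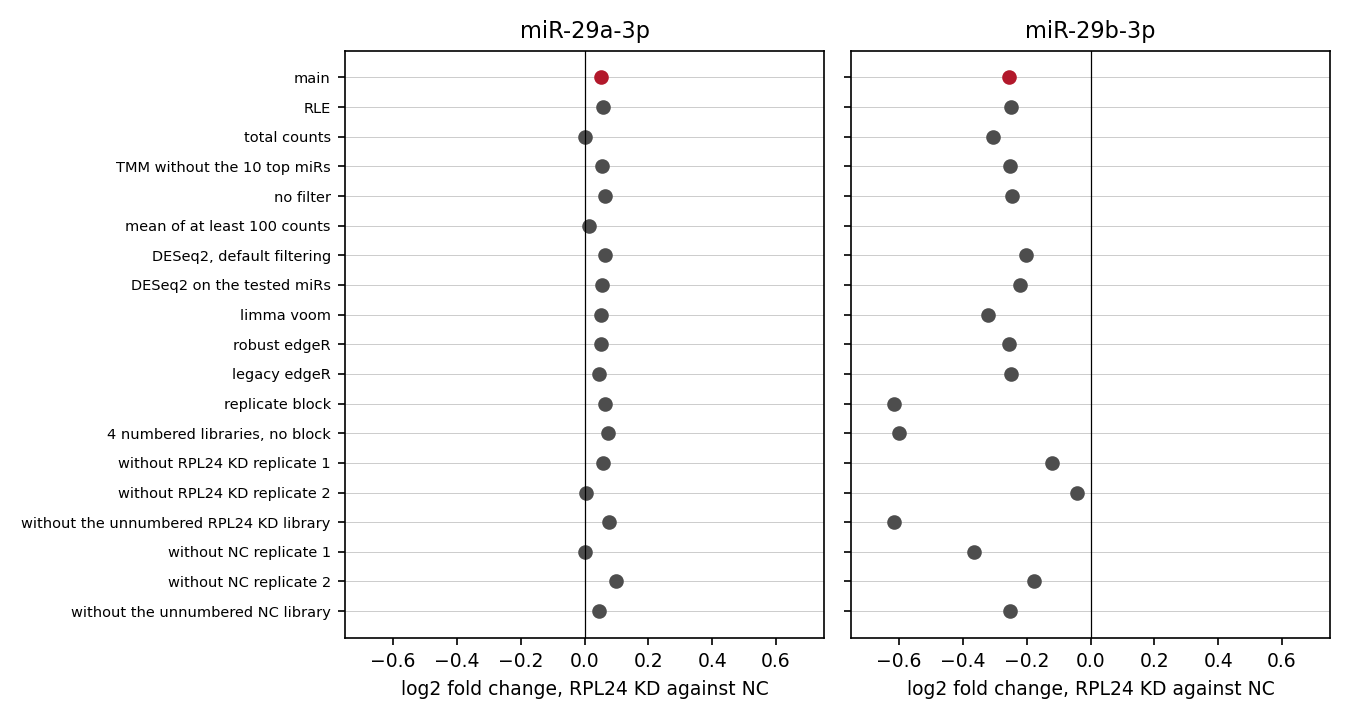
Log2 fold change, RPL24 KD over NC, for miR-29a-3p (left) and miR-29b-3p (right) as reported (red) and under each other setting (grey), 1 row each; miR-29b-3p has no point where the filter of a mean of 100 counts removed it. The points of miR-29a-3p lie between 0.00063 and 0.099 and those of miR-29b-3p between -0.62 and -0.043.

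Of all 358 tested miRs outside the family, the 5 whose level followed the summed guide arms most closely over the 6 libraries were miR-1287-5p (Pearson r = 0.96), miR-204-5p (0.90), miR-196a-3p (0.86), miR-548ah-3p (0.84) and miR-548o-3p (0.83). The points share libraries and normalization, and the highest of 358 such values over 6 libraries is a description. None of the 5 was called, with log2 fold changes from -0.07 to 0.06 and adjusted p-values from 0.847 to 0.991 (edgeR). Members of the miR-548 family have many near-identical copies, and their counts are uncertain.

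Other miRs with known functions or regulation related to those of miR-29 were read from the same fit. Of 9 miRs that target DNA methyltransferases, as miR-29 does, or Polycomb proteins, all were tested. An unadjusted p under 0.05 (edgeR) was found in 3 of the 9, beside 23.6% of all tested miRs. Of the 9, 1 was called, lower, beside 1.67% of all tested miRs called lower. It was miR-185-5p, a repressor of DNMT1, between 1769 and 1820 CPM in the 3 RPL24 KD libraries and between 2187 and 2438 in NC. It was lower without overlap, as were 12.8% of all tested miRs. Its log2 fold change was -0.35 (standard error 0.0730, adjusted p = 0.0132, edgeR). Without RPL24 KD replicate 1, 0 miRs were called, so this call was lost there. The median log2 fold change of the 9 was -0.05, beside -0.01 over all 360 tested miRs. MiR-148a-3p, also a repressor of DNA methyltransferases, was at a mean of 129800 CPM and was not called, at a fold change of -0.05 on the log2 scale (adjusted p = 0.711, edgeR).

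Of 16 miRs known to be repressed by MYC, as miR-29 is, 14 were tested and 0 were called here by edgeR, DESeq2 or limma. The authors' own DESeq2 comparison, however, listed let-7a-5p and miR-30e-5p as increased after RPL24 KD. Both were near the threshold here, at an adjusted p of 0.0729 (edgeR). An unadjusted p under 0.05 (edgeR) was found in 4 of the 14, beside 23.6% of all tested miRs. The median log2 fold change of the 14 was 0.09. MiR-34a-5p, a target of p53, had the log2 fold change farthest from 0 among them, 0.46 (adjusted p = 0.0729, edgeR), and was between 199 and 276 CPM after RPL24 KD and between 164 and 186 CPM in NC. The groups did not overlap in it, nor did they in 27.5% of all tested miRs. Of 10 miRs known for acting on collagen and TGF-beta responses in fibrosis, 6 were tested and the 3 tools called 0. Of the 6, 1 had an unadjusted p under 0.05 (edgeR), beside the same 23.6%, and their median log2 fold change was 0.05. MiR-34a-5p was named after its values were seen.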

How the data were processed

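Small RNA libraries, made from 800 ng of total RNA of HEK293T cells, were analysed, 3 after RPL24 KD and 3 NC. The authors' pipeline was FastQC 0.11.9 (per the submitters' processing notes) for quality, Flexbar for trimming and filtering, and miRExpress for alignment against miRBase, and they deposited raw read counts per mature miR and library; their own comparison used DESeq2. Adapter ligation favours some small RNAs, so levels of different miRs are approximate. Samples were grouped by their labels. The third library of each group has a number in the table that no label has and is called unnumbered.

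The counts were fitted in R 4.3.3 by edgeR 4.0.16 (quasi-likelihood, legacy = FALSE), with TMM normalization, the filterByExpr filter (minimum count 10), Benjamini-Hochberg adjustment and no replicate block. As alternatives, limma 3.58.1 and DESeq2 1.42.0 were run. Standard errors are those implied by the F statistic. Intervals of fold changes use the moderated degrees of freedom. Intervals of shares and counts are exact (Clopper-Pearson and Poisson, 95%). Of the 2588 miR names, 2281 had a RefSeq sequence.

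The miRs named are the 6 members, miR-29b-2-5p, called miRs of the other lists, the 5 miRs most correlated with the summed 3p arms, and the level neighbours of miR-29a-3p. Let-7a-5p, miR-30e-5p, miR-34a-5p, miR-148a-3p and the marker miRs were named in addition. Members and lists were chosen with earlier results of these data known.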

Additional observations from a re-analysis of the deposited data

How the results depend on the processing

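Neither tested member was called under any setting tried, 18 for miR-29a-3p and 17 for miR-29b-3p, and neither changed sign (DESeq2 with default filtering gave miR-29b-3p no adjusted p). The log2 fold change of miR-29a-3p ranged from 0.00063, without NC replicate 1, to 0.099, without NC replicate 2. That of miR-29b-3p ranged from -0.62 to -0.043. The replicate block on the 4 numbered libraries gave 0.06 and -0.62, and the same libraries unblocked gave 0.07 and -0.60. Same-numbered libraries did not deviate together from the mean of the numbered libraries of their group. The correlation was -0.02 over 360 miRs and -0.21 over the 166 with a mean of at least 100 counts. The numbers were therefore not taken as pairs.

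The 18 called miRs became 31 unfiltered, 28 scaled by total counts, 34 by robust edgeR and 57 under the replicate block, which uses the numbered libraries alone; these gave 27 unblocked. Leaving out 1 library gave from 0 to 36, with 0 without RPL24 KD replicate 1 (56 at an unadjusted p under 0.05), 8 without RPL24 KD replicate 2 and 36 without the unnumbered NC library. The 12 higher became 29 under the replicate block and 10 in the numbered libraries unblocked, and from 0 to 16 on leaving out 1 library. The 6 lower became 16 unfiltered, 18 scaled by total counts, 16 by robust edgeR, 17 among miRs averaging 100 counts or more, 10 by legacy edgeR (chosen after seeing the data), 28 under the replicate block and 17 in the numbered libraries unblocked. Leaving out 1 library gave from 0 to 20 lower, with 1 without RPL24 KD replicate 2, 10 without NC replicate 1 and 20 without the unnumbered NC library. The cause was not tested.

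Without 1 library, the difference in the log2 ratio of miR-29b-3p to miR-29b-1-5p, -0.06, ranged from -0.88 to 0.67, and that of miR-29c-3p to miR-29c-5p, -0.91, from -1.47 to 0.051. That of miR-29b-3p to miR-29c-3p ranged from 0.32 to 0.93, of miR-29c-3p to miR-29a-3p from -1.54 to -0.49, of miR-29b-3p to miR-29a-3p from -0.68 to -0.059 and of miR-29a-3p to miR-29a-5p from -1.46 to -0.65. With a pseudocount of 1 count the last was -0.59, against -0.97. These ratios are limited by depth, since miR-29b-1-5p, miR-29c-3p and miR-29c-5p had at most 8 counts in any library. MiR-29a-5p had at most 1 count in any library. Without a pseudocount, ratios with a count of 0 had no value.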
